A study of Mus musculus with 32 samples.

Results

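Light zone (LZ) B cells were set against dark zone (DZ) B cells from the germinal centres of mice with activated PIK3CD (aPIK3CD). The libraries were chosen by title and column name, which gave 4 LZ and 4 DZ libraries, 8 of the 32 in the series. The series asks what activated PIK3CD signalling does to the transcriptome of B cell populations during an antibody response, and it also holds naive B cells and plasma cells, and WT mice of every population. For each library 500 cells were sorted from the spleen of C57BL/6 mice aged 12 weeks into the SMART-Seq v4 kit, made for low RNA input. The mice had received NP-CGG with alum by intraperitoneal injection 14 days earlier, a hapten on a carrier protein that elicits germinal centres with T cell help. aPIK3CD and WT mice alike carried AID-cre, a recombinase whose promoter is active mainly in activated and germinal centre B cells. The WT zones, 4 LZ and 4 DZ libraries, served only to set the aPIK3CD zone difference beside the same difference without activated PIK3CD.

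In both zone libraries titled aPIK3CD replicate 1 the genotype field reads WT, while title, description and column name read aPIK3CD, so results are also given without both. The labels do not say whether replicates came from separate mice, so p-values measure the spread between these samples, which may be technical. Total counts were 1333598 to 1584402 in LZ libraries and 1154809 to 1941224 in DZ libraries (means 1450510 ± 118433 in LZ and 1517793 ± 328955 in DZ, SD, n = 4 each, two-sided exact permutation p = 0.8). Among WT libraries, DZ replicate 3 held 25797 counts. Correlations of log2 CPM were 0.857 to 0.915 between an LZ and a DZ library, at least 0.912 within LZ and at least 0.898 within DZ. The first principal component, with 30.9% of the variance, placed the LZ libraries between -31.37 and -17.61 and the DZ libraries between 10.93 and 42.47, DZ replicate 4 lying nearest to the LZ side. The sources used here do not give the sort gate.

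In a germinal centre, B cells divide and mutate their antibody genes in the dark zone, then move to the light zone, where they take up antigen through the B cell receptor and compete for help from follicular T cells. Selected light zone cells are known to switch on MYC and to return to the dark zone, or to leave as memory or plasma cells. PIK3CD encodes p110-delta, the leukocyte catalytic subunit of phosphoinositide 3-kinase, which acts downstream of the B cell receptor and, through the kinase AKT, drives the transcription factor FOXO1 out of the nucleus. FOXO1 is known to maintain the dark zone programme.

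The genes that differed included cell cycle genes lower in LZ and NF-kB target genes higher in LZ, and the promoters of 5 of these genes are shown because each group's motif can be read in them. Sequences run 5′ to 3′ from 250 bases before to 50 bases after the RefSeq gene start, on build GRCm38.p6. In Cenpf (chr1:189688037-189688336, minus strand), Mki67 (chr7:135716330-135716629, minus strand) and Cdc20 (chr4:118437294-118437593, minus strand) capitals mark CCAAT and TTTGAA in either orientation. CCAAT is the box bound by NF-Y, and TTTGAA is the core of the cell cycle homology element found in genes of late cell cycle. In Ebi3 (chr17:55952373-55952672, plus strand) and Nfkbia (chr12:55492598-55492897, minus strand) capitals mark matches to the NF-kB consensus in either orientation.
Cenpf: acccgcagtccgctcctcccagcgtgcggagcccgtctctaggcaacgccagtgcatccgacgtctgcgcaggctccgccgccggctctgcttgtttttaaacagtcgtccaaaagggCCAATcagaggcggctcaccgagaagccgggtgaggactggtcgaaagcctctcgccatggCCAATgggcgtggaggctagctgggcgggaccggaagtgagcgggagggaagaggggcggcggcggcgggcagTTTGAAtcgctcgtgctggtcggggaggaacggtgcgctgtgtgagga
Mki67: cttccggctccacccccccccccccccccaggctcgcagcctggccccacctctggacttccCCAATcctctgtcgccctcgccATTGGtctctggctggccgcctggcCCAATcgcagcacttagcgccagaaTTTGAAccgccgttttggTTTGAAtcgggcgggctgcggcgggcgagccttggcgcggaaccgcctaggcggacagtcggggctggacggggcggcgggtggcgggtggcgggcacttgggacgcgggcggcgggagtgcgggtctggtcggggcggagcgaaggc
Cdc20: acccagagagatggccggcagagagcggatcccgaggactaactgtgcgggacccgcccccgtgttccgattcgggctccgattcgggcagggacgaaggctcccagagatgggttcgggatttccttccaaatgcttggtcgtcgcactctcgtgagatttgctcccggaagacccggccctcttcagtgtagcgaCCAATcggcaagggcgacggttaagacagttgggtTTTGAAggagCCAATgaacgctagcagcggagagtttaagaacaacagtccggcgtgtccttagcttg
Ebi3: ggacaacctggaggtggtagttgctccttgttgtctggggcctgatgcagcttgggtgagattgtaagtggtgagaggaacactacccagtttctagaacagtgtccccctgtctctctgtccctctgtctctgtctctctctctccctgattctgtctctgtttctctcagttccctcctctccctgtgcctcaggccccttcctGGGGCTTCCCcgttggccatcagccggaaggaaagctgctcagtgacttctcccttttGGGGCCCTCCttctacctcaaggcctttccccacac
Nfkbia: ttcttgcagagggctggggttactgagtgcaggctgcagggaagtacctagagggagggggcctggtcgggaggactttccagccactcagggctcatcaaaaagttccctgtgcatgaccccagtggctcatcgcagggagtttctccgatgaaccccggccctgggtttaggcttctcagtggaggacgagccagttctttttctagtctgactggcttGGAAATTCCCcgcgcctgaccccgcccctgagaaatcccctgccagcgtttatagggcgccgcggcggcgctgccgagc

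Of the 11 genes of the G2 and mitosis list that were lower in LZ, 10 had an entry, with 11 promoters. CCAAT stood in 11 of these 11 promoters, against 69.6% of the 56 promoters of list members that did not pass the test and 38.7% of promoters of all genes tested. TTTGAA stood in 72.7%, against 62.5% and 12.5%. The motifs were thus common across mitotic genes whether or not they passed the test. Of the 9 NF-kB and CD40 list members higher in LZ, 6 had an entry, with 6 promoters. An NF-kB match stood in 4 of these (66.7%), those of Ebi3, Nfkbie, Nfkbia and Bcl3, against 9.95% of promoters of all genes tested. List members that did not pass were not searched for this motif. The share thus describes a list chosen for NF-kB and CD40 responses and does not bear on the zone difference. The MYC E-box CACGTG stood in 1 of 18 promoters of MYC and ribosome biogenesis genes higher in LZ (5.56%), against 10.5%. A match describes these letters only, and binding was not measured.

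Of 9798 genes tested, 307 were higher and 285 lower in LZ than in DZ (6.04% of genes tested, or 3.13% higher and 2.91% lower), with changes above 2-fold in 142 of the higher and 108 of the lower genes. Without both libraries of aPIK3CD replicate 1 the counts were 154 and 165, and 301 of the 592 genes still passed. Single libraries also moved the counts: 171 higher and 175 lower remained without LZ replicate 3, and 181 higher without LZ replicate 4. The direction of change was kept by each of the 592 genes in every alternative in which it was tested. The ranges of the zones did not overlap for 12.8% of all genes tested.

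The markers often used to sort the zones were read first as a check of the labels, not as a finding. Cd83, an activation marker of LZ cells, had 920, 610, 660 and 663 CPM in the 4 LZ libraries, against 390, 295, 393 and 459 CPM in the 4 DZ libraries (log2 fold change 0.89, SE 0.14, edgeR adjusted p = 0.00156). Cd86, a costimulatory ligand, had 350, 300, 310 and 277 CPM in LZ, against 239, 199, 253 and 209 CPM in DZ (0.46, SE 0.12, adjusted p = 0.0349). Cxcr4, the chemokine receptor that holds cells in the dark zone, had 21.2, 28.4, 37.4 and 36.5 CPM in LZ, against 63.9, 86.3, 56.8 and 49.2 CPM in DZ (-1.04, SE 0.26, adjusted p = 0.0263). The zones did not overlap in these genes, and all differed in the direction their labels imply. Cd83 passed the test without both libraries of replicate 1, and Cd86 and Cxcr4 did not. In the 8 fits that left out 1 library, Cd86 lost the call in 6 and Cxcr4 in 4.

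Of 12 germinal centre B cell markers tested, 4 fell in LZ and 0 rose, with a median log2 fold change of -0.52 against -0.01 over all genes tested. Gcsam, a germinal centre signalling adaptor, had 275, 230, 252 and 184 CPM in LZ, against 585, 623, 784 and 594 CPM in DZ (log2 fold change -1.46, SE 0.14, edgeR adjusted p = 2.49e-05). Neil1, a DNA glycosylase, averaged 253 ± 22.4 CPM in LZ and 546 ± 29.2 CPM in DZ (SD, n = 4 each, -1.11, SE 0.10), and Nuggc, a nuclear GTPase that protects the genome of germinal centre B cells, 252 ± 22.4 CPM in LZ and 481 ± 45.0 CPM in DZ (-0.93, SE 0.11). Every LZ library lay below every DZ library in all 3 genes. The summed level of the 12 markers was 2942 to 3584 CPM of total counts in LZ and 4482 to 5001 in DZ, and 182 to 247 in the naive B cells of the series. Both zones thus carried germinal centre markers far above naive cells.

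**Figure D1:**
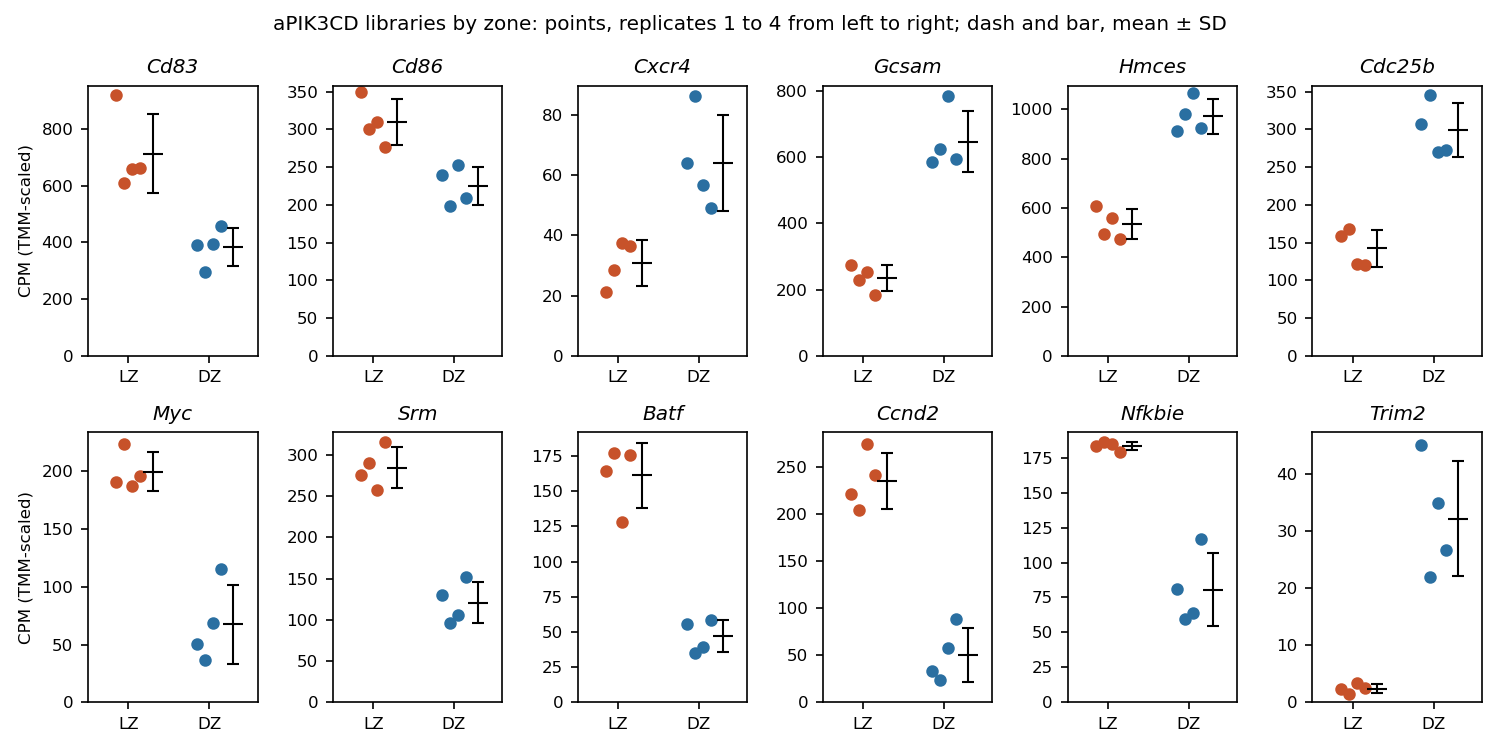
CPM of 12 genes in each aPIK3CD library, with LZ left of DZ, points for replicates 1 to 4 and the mean ± SD beside them (each axis starts at 0). The zones do not overlap in any panel. LZ is higher for Cd83, Cd86, Myc, Srm, Batf, Ccnd2 and Nfkbie and lower for Cxcr4, Gcsam, Hmces, Cdc25b and Trim2.

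The 14 genes with the largest rises in LZ, by a rule that also required the zones not to overlap, included surface receptors and ligands at low levels. Ebi3, a subunit of the cytokines IL-27 and IL-35, had 36.4, 27.7, 23.4 and 52.8 CPM in LZ, against 2.09, 0.881, 2.18 and 6.48 CPM in DZ (log2 fold change 3.52, SE 0.51, edgeR adjusted p = 0.000725). Cd70, the ligand of CD27 on T cells, had 19.0, 26.9, 18.0 and 21.4 CPM in LZ, against 1.05, 1.76, 5.09 and 0.648 CPM in DZ (3.31, SE 0.58, adjusted p = 0.00246). Actr3b, a subunit of the actin-branching Arp2/3 complex, had 22.8, 26.2, 12.7 and 26.4 CPM in LZ, against 3.14, 0.881, 2.18 and 3.89 CPM in DZ (3.03, SE 0.52, adjusted p = 0.00209). These 3 genes were under 10 CPM in every DZ library. Plscr1, a phospholipid scramblase induced by interferon, averaged 41.6 ± 14.8 CPM in LZ and 6.00 ± 5.58 CPM in DZ (2.77, SE 0.50), and Tmem154, a membrane protein, 58.2 ± 18.6 CPM in LZ and 9.83 ± 10.1 CPM in DZ (2.56, SE 0.50). For Plscr1 and Tmem154 the highest DZ library was replicate 4, with 14.3 and 24.6 CPM.

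The lipid-sensing receptors Gpr34 (log2 fold change 4.28) and Gpr55 (3.25), the zinc finger gene Zfp105 (4.23), the mitochondrial topoisomerase gene Top1mt (2.59), the tRNA-processing nuclease gene Elac1 (2.49) and the secreted protein gene Crisp3 (2.70) were also named by the rule. Zfp105 and Gpr55 were at 0 in 3 of 4 DZ libraries. Zfp105, Top1mt, Elac1 and Crisp3 did not pass when both libraries of replicate 1 were left out. Gpr55, Crisp3 and Top1mt each lost the call in 6 of 8 fits that left out 1 library. Reads of Crisp3 may be shared with its close paralogs. Set beside aPIK3CD naive B cells (means, CPM of total counts), the genes named so far were mixed. Crisp3 (69.5 in naive, 12.9 in LZ), Tmem154 (106 and 57.5), Top1mt (26.7 and 18.5) and Elac1 (25.7 and 18.9) were higher there. Ebi3 (28.7 and 34.7), Gpr34 (14 and 23.2), Actr3b (15.5 and 21.8) and Plscr1 (17.4 and 41.2) were lower. Cd70, Zfp105 and Gpr55 were lower too. The part of naive B cells in these values was not tested here.

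The remaining 3 genes of that group are on the list of T cell markers. Cd8b1, the beta chain of the CD8 coreceptor, had 36, 35, 38 and 20 counts in the LZ libraries, against 0 in each DZ library, which is at least 45.4-fold higher when DZ is set to a floor of 3 counts over the group (edgeR adjusted p = 0.000225). Cd3g, a chain of the T cell receptor complex, had 30.4, 18.7, 38.7 and 52.8 CPM in LZ, against 9.42, 0, 4.37 and 6.48 CPM in DZ (log2 fold change 2.70, SE 0.55, adjusted p = 0.00753). Il7r, the IL-7 receptor, had 9.86, 17.9, 10.7 and 10.7 CPM in LZ, against 0.523, 1.76, 0 and 0.648 CPM in DZ (4.01, SE 0.71, adjusted p = 0.00278). Cd8b1 had 0 counts in every aPIK3CD naive B cell library, while Cd3g had 6 to 27 CPM of total counts there. Il7r averaged 16.1 CPM of total counts in those libraries and 12.2 in LZ. Of 15 T cell markers, 8 were tested and 5 rose in LZ, the others being Cd3d and Trbc2. Each of the 15 had a count in at least 1 LZ library, and 2, Cd8b1 and Cd8a, had none in any DZ library. Their summed level was 513 to 711 CPM of total counts in LZ and 300 to 403 in DZ. Most of that sum was Lck, a kinase gene that in these libraries was high in both zones, and without Lck the sum was 152 to 314 CPM in LZ and 23.4 to 55.1 in DZ. The WT libraries spanned 90.9 to 408 in LZ and 6.14 to 194 in DZ on the same 14 markers. The 194 was WT DZ replicate 3, which held 25797 counts in all, so it says little. The other WT DZ libraries had 7.41, 96.5 and 6.14. On these markers the naive B cells of the series had 41.2 to 177 and the plasma cells 288 to 446. Cd4 had 1, 8, 10 and 11 counts in LZ libraries and 1, 11, 0 and 0 in DZ libraries. Without LZ replicate 4, 3 of the 5 markers passed the test. In bulk samples, fewer cells of a type and less RNA per cell cannot be told apart, and the part of T cell RNA in the LZ values was not tested.

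Of the 14 genes with the largest falls in LZ, Trim2, a ubiquitin ligase, had 2.28, 1.5, 3.34 and 2.51 CPM in LZ, against 45.0, 22.0, 34.9 and 26.6 CPM in DZ (log2 fold change -3.69, SE 0.45, edgeR adjusted p = 0.000196). Lgr5, the R-spondin receptor known as a stem cell marker of epithelia, had 3.79, 5.98, 2 and 7.54 CPM in LZ, against 22.5, 37.0, 21.1 and 37.6 CPM in DZ (-2.58, SE 0.46, adjusted p = 0.00278). Ackr4, an atypical receptor that removes the chemokines CCL19 and CCL21, had 10.6, 7.48, 16.7 and 14.5 CPM in LZ, against 53.9, 52.9, 85.9 and 62.2 CPM in DZ (-2.35, SE 0.31, adjusted p = 0.000299). In these genes the lowest DZ library was more than 2-fold above the highest LZ library. Emp2, a tetraspan membrane protein (-2.64), Reln, the extracellular protein reelin (-2.22), Scn11a, a sodium channel (-2.97), and Serinc5, a membrane protein that restricts retroviruses (-2.09), fell as well. Adhfe1 (-2.40), Tspoap1 (-2.38), Zfat (-2.24), Pdlim3 (-2.07) and Uevld (-2.01) completed the protein-coding genes outside the globins. Zfat, Pdlim3 and Uevld did not pass without both libraries of replicate 1, and Uevld lost the call in 6 of 8 fits that left out a library.

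Hbb-bh1, an embryonic beta-like globin, had 31.9, 12.7, 11.3 and 5.03 CPM in LZ, against 107, 118, 97.5 and 55.7 CPM in DZ (log2 fold change -2.65, SE 0.40, edgeR adjusted p = 0.000957). It had 0 counts in every aPIK3CD naive B cell library. The adult globin Hbb-bt averaged 26.8 ± 9.22 CPM in LZ and 27.7 ± 16.1 CPM in DZ (-0.03, SE 0.42, adjusted p = 0.983). The summed level of 8 erythroid and platelet markers was 25.5 to 45.7 CPM in LZ and 21.1 to 55.4 in DZ, so the embryonic globin differed between zones and these markers overlapped. Aknaos (-2.85) lies antisense to Akna. Akna, chosen after its values were seen, averaged 101 ± 11.9 CPM in LZ and 102 ± 35.5 CPM in DZ. The kit does not mark strand, so reads of the pair cannot be told apart.

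**Figure D2:**
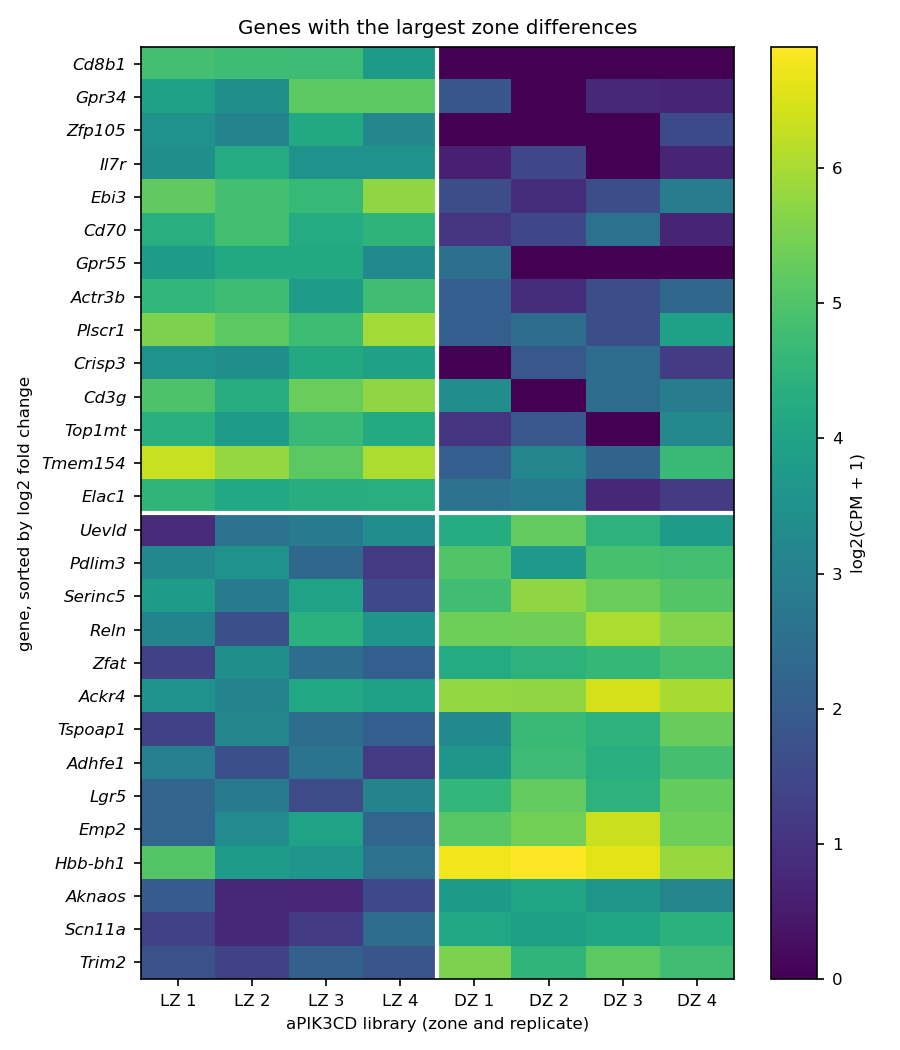
log2(CPM + 1) of the 28 genes with the largest zone differences in the 4 LZ (left) and 4 DZ (right) aPIK3CD libraries, sorted by log2 fold change, LZ over DZ. The rule that chose these genes required the zones not to overlap, so the split is not evidence of its own. Cd8b1 is at 0 in all 4 DZ libraries, and Tmem154 and Plscr1 are higher in DZ replicate 4 than in the other DZ libraries.

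The genes that passed the test in 3 cell cycle lists were lower in LZ, apart from Ccnd2. Of 75 tested members of the G2 and mitosis list, 11 fell and 0 rose, 70 had a negative log2 fold change, and the median was -0.27 against -0.01 over all genes tested. Cdc25b, the phosphatase that starts mitotic entry, had 159, 168, 122 and 121 CPM in LZ, against 307, 346, 270 and 273 CPM in DZ (log2 fold change -1.07, SE 0.14, edgeR adjusted p = 0.000353). Cenpf, a kinetochore protein, had 301, 319, 349 and 392 CPM in LZ, against 594, 589, 579 and 485 CPM in DZ (-0.72, SE 0.11, adjusted p = 0.00119). Mki67, the proliferation antigen of the chromosome surface, had 858, 944, 934 and 907 CPM in LZ, against 1205, 1343, 1206 and 1302 CPM in DZ (-0.47, SE 0.08, adjusted p = 0.00268). Each zone formed its own range in these genes. Nek2, a centrosome kinase, averaged 79.5 ± 8.16 CPM in LZ and 159 ± 29.8 CPM in DZ (-1, SE 0.17), and Cdc20, an activator of the anaphase-promoting complex, 219 ± 20.6 CPM in LZ and 334 ± 33.5 CPM in DZ (-0.61, SE 0.12). The remaining falls were Cenpe, Ncapd2, Tpx2, Cdca3, Cdca8 and Ect2, which were outside the naming rule and lay between -0.39 and -0.61. The count was 8 without both libraries of replicate 1, and 8 to 16 when single libraries were left out. Cdk1 (-0.05, SE 0.12) and Top2a (-0.20, SE 0.09), chosen after their values were seen, did not pass the test.

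Of 67 genes of G1/S and DNA replication, 3 fell and 0 rose, a share near the 2.91% of all genes called lower, with a median log2 fold change of -0.17. Rfc1, the large subunit of the clamp loader, had 570, 668, 563 and 573 CPM in LZ, against 792, 850, 865 and 844 CPM in DZ (log2 fold change -0.50, SE 0.09, edgeR adjusted p = 0.00375). E2f2, an E2F transcription factor, averaged 96.4 ± 18.8 CPM in LZ and 170 ± 9.12 CPM in DZ (-0.82, SE 0.16). The licensing factor gene Cdt1 (-0.56, adjusted p = 0.0582) and the kinase gene Cdc7 (-0.41, adjusted p = 0.0884) did not pass. Without LZ replicate 1, 5 members fell.

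Among 14 cyclins, kinases and their inhibitors, 1 rose and 2 fell. Ccnd2, cyclin D2, had 221, 204, 274 and 241 CPM in LZ, against 33.5, 23.8, 57.5 and 88.1 CPM in DZ (log2 fold change 2.20, SE 0.28, edgeR adjusted p = 0.000209). Cdk2, the kinase of the G1/S transition, had 122, 84.5, 117 and 102 CPM in LZ, against 152, 218, 213 and 208 CPM in DZ (-0.89, SE 0.16, adjusted p = 0.00369). Cdkn2d, an inhibitor of CDK4 and CDK6, averaged 109 ± 12.4 CPM in LZ and 182 ± 11.7 CPM in DZ (-0.73, SE 0.14) and did not pass without both libraries of replicate 1. Cyclin D2 was thus higher in LZ while Cdk2 and Cdkn2d were lower. Cdk4 (0.31, adjusted p = 0.0856) and Cdkn1a, the inhibitor p21 (1.45, adjusted p = 0.0797), did not pass. With DZ replicate 1 left out, 2 members rose.

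Of 30 tested genes of somatic hypermutation and DNA repair, 7 fell and 1 rose in LZ (median -0.26). Hmces, which shields abasic sites in single-stranded DNA, had 609, 494, 558 and 475 CPM in LZ, against 913, 981, 1065 and 925 CPM in DZ (log2 fold change -0.86, SE 0.10, edgeR adjusted p = 0.000165). Mbd4, a glycosylase of mismatched thymine and uracil, had 282, 213, 230 and 201 CPM in LZ, against 443, 460, 404 and 397 CPM in DZ (-0.88, SE 0.12, adjusted p = 0.000455). Every LZ library lay below every DZ library in these genes. Lig4, the ligase of non-homologous end joining, averaged 43.1 ± 5.61 CPM in LZ and 99.0 ± 21.4 CPM in DZ (-1.20, SE 0.22), and Xrcc1, a scaffold of base excision repair, 174 ± 30.6 CPM in LZ and 261 ± 22.2 CPM in DZ (-0.59, SE 0.14). Outside the naming rule, Poli (-0.79) and Gadd45a (-1.33) fell, and Apex1, the abasic site endonuclease, rose (0.87, adjusted p = 0.0326). Leaving out both libraries of replicate 1 gave 5 falls and 0 rises, and without LZ replicate 2, 3 or 4 the falls numbered 4. Apex1 passed in 1 of the 8 leave-one-out fits, that without DZ replicate 1.

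Of 43 tested genes of NF-kB signalling and CD40 responses, 9 rose and 1 fell in LZ, with a median log2 fold change of 0.37. Nfkbie, an NF-kB inhibitor that is itself an NF-kB target, had 183, 186, 185 and 179 CPM in LZ, against 81.1, 59.9, 64.1 and 117 CPM in DZ (1.18, SE 0.19, edgeR adjusted p = 0.00156). Nfkbia, the inhibitor I-kappa-B alpha, had 505, 449, 500 and 483 CPM in LZ, against 307, 266, 331 and 310 CPM in DZ (0.67, SE 0.10, adjusted p = 0.00119). Tnfsf9, the ligand of 4-1BB, had 216, 138, 198 and 121 CPM in LZ, against 88.5, 50.2, 85.9 and 73.2 CPM in DZ (1.16, SE 0.22, adjusted p = 0.00404). The LZ values of Nfkbie were nearly alike, and its highest DZ library was replicate 4. Ebi3 and Cd70, given above, rose too, as did Bcl3, Birc3, Bcl2a1d and Cd40, and Gadd45b fell (-0.40, adjusted p = 0.0474). The genes of the NF-kB subunits Nfkb1 (0.07) and Rel (0.06), chosen after their values were seen, did not pass the test, nor did Nfkb2 (0.70, adjusted p = 0.0716). The rises numbered 5 without both libraries of replicate 1, and 8 to 12 when single libraries were left out. The list had 0 falls without both libraries of replicate 1 and in the fits that left out a single library, apart from 1 fall without DZ replicate 4.

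Of 35 genes of contact with follicular T cells, 7 rose and 0 fell (median 0.29). Besides Cd70, Tnfsf9 and Cd86, these were Cd40, Il2rg, Ifngr2 and the adhesion gene Cd48. Cd40, the receptor of T cell CD40 ligand, had 335, 311, 325 and 262 CPM in LZ, against 187, 133, 206 and 216 CPM in DZ (log2 fold change 0.73, SE 0.15, edgeR adjusted p = 0.00711). Il2rg, the common cytokine receptor chain that is part of the IL-21 receptor, had 270, 239, 273 and 253 CPM in LZ, against 147, 173, 171 and 183 CPM in DZ (0.62, SE 0.12, adjusted p = 0.00585). Ifngr2, a chain of the interferon gamma receptor, averaged 74.6 ± 12.8 CPM in LZ and 38.7 ± 9.80 CPM in DZ (0.94, SE 0.24). The zones did not overlap in Cd40 or Il2rg, though T cells express Il2rg and Cd48 as well, and the T cell marker sum above moved with the zone. Of the 7, 3 passed without both libraries of replicate 1, and Cd40 and Ifngr2 did not. Without LZ replicate 2, LZ replicate 3 or DZ replicate 2, 4 passed. Icosl, the ligand of ICOS, chosen after its values were seen, averaged 66.5 ± 16.3 CPM in LZ and 62.4 ± 8.87 CPM in DZ (0.09, adjusted p = 0.885).

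The list of MYC and ribosome biogenesis genes had the most rises. Of 54 tested, 18 rose and 0 fell, 50 had a positive log2 fold change and the median was 0.44. Myc had 191, 224, 187 and 196 CPM in LZ, against 50.3, 37.0, 68.4 and 115 CPM in DZ (log2 fold change 1.55, SE 0.25, edgeR adjusted p = 0.00156). Srm, spermidine synthase, had 275, 290, 257 and 316 CPM in LZ, against 130, 96.0, 106 and 152 CPM in DZ (1.22, SE 0.15, adjusted p = 0.000196). C1qbp, a mitochondrial matrix protein, had 367, 422, 331 and 352 CPM in LZ, against 204, 222, 184 and 189 CPM in DZ (0.88, SE 0.12, adjusted p = 0.000338). No DZ library reached the lowest LZ library in these genes, and DZ replicate 4 was the highest DZ library for Myc and Srm. Rcl1, a factor of ribosomal RNA processing, averaged 121 ± 21.3 CPM in LZ and 37.6 ± 14.2 CPM in DZ (1.66, SE 0.25), and Nolc1, a nucleolar chaperone, 288 ± 9.12 CPM in LZ and 171 ± 24.5 CPM in DZ (0.75, SE 0.13). The other rises, outside the naming rule, such as Gnl3, Dkc1, Hspd1, Npm1 and Ncl, lay between 0.38 and 0.88. There were 14 rises without both libraries of replicate 1, and 13 to 21 when single libraries were left out. Among 77 ribosomal protein genes 0 passed in edgeR, DESeq2 or limma voom and 3 had an unadjusted p below 0.05, while 70 were positive (median 0.15). Their reads may be shared with pseudogene copies.

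Among 45 transcription factors of the germinal centre, 3 rose and 5 fell. Batf, which T cell help induces, had 164, 177, 128 and 176 CPM in LZ, against 56.0, 35.2, 39.3 and 58.3 CPM in DZ (log2 fold change 1.76, SE 0.20, edgeR adjusted p = 0.00014). Bach2, a repressor that delays plasma cell fate, had 223, 273, 211 and 219 CPM in LZ, against 467, 617, 453 and 389 CPM in DZ (-1.05, SE 0.14, adjusted p = 0.00031). Foxp1, a forkhead factor, had 184, 168, 171 and 153 CPM in LZ, against 286, 292, 278 and 248 CPM in DZ (-0.71, SE 0.12, adjusted p = 0.00205). Each of these genes had separate ranges in the zones. Id2, an inhibitor of E proteins, averaged 169 ± 30.4 CPM in LZ and 86.9 ± 13.6 CPM in DZ (0.96, SE 0.17). The E protein gene Tcf3 fell (-0.73, SE 0.20, adjusted p = 0.0358), as did the coactivator gene Pou2af1 (-0.52, SE 0.10) and Foxo1, described with the PI3K genes. Hhex, a homeobox factor of memory B cells, rose (1.55, SE 0.32). Chosen after their values were seen, Bcl6, the master factor of germinal centre B cells (-0.61, adjusted p = 0.0818), and Irf4 (1.19, adjusted p = 0.0606) did not pass. Without DZ replicate 4, 7 rose and 7 fell.

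Pik3cd itself, whose product carries the activation, had 134, 206, 162 and 183 CPM in LZ, against 193, 258, 162 and 259 CPM in DZ (log2 fold change -0.35, SE 0.17, edgeR adjusted p = 0.286). The zones overlapped, and an activating change in the protein need not alter its RNA, so this gene does not check the labels. Of 43 genes of PI3K, AKT and FOXO signalling, 4 rose and 5 fell (median -0.15). Foxo1 had 259, 287, 276 and 248 CPM in LZ, against 353, 451, 400 and 365 CPM in DZ (-0.55, SE 0.11, adjusted p = 0.00753). Akt1, the kinase that phosphorylates FOXO1, had 134, 103, 88.8 and 85.5 CPM in LZ, against 194, 170, 170 and 209 CPM in DZ (-0.86, SE 0.17, adjusted p = 0.00513). Both genes were lower in every LZ library. Pik3cg, the catalytic subunit p110-gamma, averaged 63.5 ± 9.93 CPM in LZ and 123 ± 27.3 CPM in DZ (-0.95, SE 0.20), and Cited2 and the proapoptotic gene Bcl2l11 fell as well. The rises included Il7r, Ccr7 and S1pr1, which FOXO1 is known to activate in lymphocytes, directly or through KLF2. They are also genes of naive B cells or T cells, and Il7r belongs to the T cell markers above. When both libraries of replicate 1 were left out, 3 rose and 3 fell.

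Among 22 receptors and signalling genes of B cell positioning, 3 rose and 0 fell. Ccr7, which guides cells toward the T cell zone, had 77.4, 81.5, 94.1 and 109 CPM in LZ, against 37.7, 14.1, 15.3 and 49.9 CPM in DZ (log2 fold change 1.6, SE 0.33, edgeR adjusted p = 0.00751). S1pr1, the receptor for exit into blood, had 109, 96.5, 95.4 and 84.2 CPM in LZ, against 29.8, 20.3, 24.7 and 72.6 CPM in DZ (1.37, SE 0.32, adjusted p = 0.0155). Gpr183, the oxysterol receptor EBI2 of the outer follicle, had 106, 56.8, 86.1 and 136 CPM in LZ, against 23.6, 13.2, 42.2 and 70.6 CPM in DZ (1.36, SE 0.38, adjusted p = 0.0434). DZ replicate 4 was the highest DZ library in all 3, and Gpr183 overlapped between zones. S1pr2, which confines cells to the germinal centre, averaged 309 ± 33.2 CPM in LZ and 436 ± 98.8 CPM in DZ (-0.50, adjusted p = 0.0509). Ccr7 passed without both libraries of replicate 1, and S1pr1 and Gpr183 did not. Without DZ replicate 3, 1 of the 3 passed. In the 8 fits that left out 1 library, Gpr183 lost the call in 6, S1pr1 in 1 and Ccr7 in 0. The falls numbered 1 without both libraries of replicate 1 and 2 without DZ replicate 4.

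These receptors are also markers of naive B cells. Of 10 naive B cell markers tested, 6 rose in LZ and 0 fell, and the median log2 fold change was 0.99. Fcer2a, the low-affinity IgE receptor CD23, had 323, 256, 262 and 274 CPM in LZ, against 74.9, 73.1, 81.5 and 154 CPM in DZ (1.54, SE 0.21, edgeR adjusted p = 0.000327). Cr2, complement receptor 2, averaged 426 ± 34.8 CPM in LZ and 302 ± 22.4 CPM in DZ (0.50, SE 0.11). The zones did not overlap in Fcer2a. The summed level of the 10 markers was 1860 to 2222 CPM of total counts in LZ, 1066 to 1517 in DZ and 6663 to 7329 in naive B cells, none of the 10 being at 0 in either zone. Genes of other lists that rose in LZ were mixed in this respect (aPIK3CD means, CPM of total counts). Nfkbie (234 in naive B cells, 181 in LZ), Il2rg (363 and 256) and Ifngr2 (200 and 73.9) were higher in naive B cells. Cd70 (0 and 21.1), Tnfsf9 (16.2 and 166) and Batf (55 and 160) were lower there, and Myc had 202 and 197. The part of naive B cells in these values was not tested. Leaving out both libraries of replicate 1, 3 markers passed, and without DZ replicate 3, 4 did.

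Of 19 genes linked to memory B cell precursors, 5 rose and 2 fell, with a median log2 fold change of 0.74. Hhex had 43.3, 39.6, 46.0 and 56.6 CPM in LZ, against 20.9, 13.2, 8.73 and 19.4 CPM in DZ (edgeR adjusted p = 0.00714). Cd38, Gpr183 and S1pr1, which rose with it, are shared with other lists. Of the 8 fits that left out 1 library, Cd38 lost the call in 5, Gpr183 in 6 and S1pr1 in 1. In aPIK3CD naive B cells Hhex averaged 284 CPM of total counts (45.9 in LZ), Cd38 624 (205), Gpr183 386 (95.3) and S1pr1 499 (95). The part of naive B cells in these rises was not tested. Bach2, which memory precursors are known to keep, fell, as did Nt5e, the ectoenzyme CD73, with 44.8, 44.9, 52.7 and 23.9 CPM in LZ, against 117, 85.4, 74.2 and 97.9 CPM in DZ (-1.18, SE 0.25, adjusted p = 0.00898). The list was thus divided between genes higher and lower in LZ, with no overlap of zones in Hhex or Nt5e. Without both libraries of replicate 1, 2 rose and 1 fell. The rises numbered 2 without DZ replicate 3 and 8 without DZ replicate 4.

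Of 21 genes of the MHC class II pathway, 5 rose and 1 fell. Ifi30, a lysosomal thiol reductase, had 270, 275, 250 and 255 CPM in LZ, against 174, 167, 166 and 141 CPM in DZ (log2 fold change 0.69, SE 0.12, edgeR adjusted p = 0.00246). H2-Oa, a chain of the inhibitor of peptide loading, had 227, 221, 253 and 216 CPM in LZ, against 153, 130, 148 and 136 CPM in DZ (0.69, SE 0.13, adjusted p = 0.0036). March1, the ubiquitin ligase that removes MHC class II and CD86 from the surface, had 134, 106, 88.8 and 86.1 CPM in LZ, against 225, 262, 227 and 139 CPM in DZ (-1.04, SE 0.20, adjusted p = 0.0042). The zones did not overlap in these genes, with March1 the one that was lower in LZ. The protease genes Ctsb, Ctss and Ctsh rose (0.86, 0.40 and 0.38). The class II chain gene H2-Aa (0.20, adjusted p = 0.332) and the invariant chain gene Cd74 (0.08, adjusted p = 0.764), chosen after their values were seen, did not pass. Without both libraries of replicate 1, 2 rose and 1 fell. The rises numbered 3 without any 1 of the LZ libraries or without DZ replicate 2 or 4.

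Of 46 genes of the B cell receptor pathway, Cr2 and the ectoenzyme gene Cd38 rose, and Dok3 and Cbl, both negative regulators, fell (median -0.02). Cd38 averaged 208 ± 75.3 CPM in LZ and 84.5 ± 47.9 CPM in DZ (log2 fold change 1.30, SE 0.31, edgeR adjusted p = 0.0198), Dok3 174 ± 25.8 CPM in LZ and 259 ± 30.9 CPM in DZ (-0.57, SE 0.14), and Cbl 111 ± 11.9 CPM in LZ and 168 ± 29.4 CPM in DZ (-0.60, SE 0.16). None of these 4 passed without both libraries of replicate 1. Cbl passed in only 1 of the 8 leave-one-out fits, while Cd38 lost the call in 5, Dok3 in 4 and Cr2 in 0. The zones overlapped in Cd38, with 115 CPM in the lowest LZ library and 155 CPM in the highest DZ library. Leaving out single libraries gave 1 to 4 rises and 0 or 1 falls in the pathway. Of 22 BCL2 family genes, Bcl2a1d, a survival factor induced by NF-kB, rose to 32.9 ± 7.44 CPM in LZ, against 10.1 ± 3.25 CPM in DZ (1.69, SE 0.36, adjusted p = 0.0103). Its reads may be shared with near-identical copies of the gene. Bcl2l11, the proapoptotic protein BIM, fell to 43.9 ± 4.71 CPM in LZ, against 77.6 ± 13.9 CPM in DZ (-0.82, SE 0.21, adjusted p = 0.0313). Neither of the pair passed without both libraries of replicate 1, and Bcl2l11 failed in 6 of the 8 leave-one-out fits. The calls in both lists lay near the shares of all genes tested, 3.13% higher and 2.91% lower.

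Of 27 plasma cell genes, 7 rose and 1 fell (median 0.41). Derl3, a factor of endoplasmic reticulum degradation, had 118, 86.7, 118 and 66.0 CPM in LZ, against 40.8, 23.8, 40.8 and 46.7 CPM in DZ (log2 fold change 1.34, SE 0.25, edgeR adjusted p = 0.00437). Pdia4, a protein disulfide isomerase, had 411, 179, 230 and 194 CPM in LZ, against 73.3, 28.2, 84.4 and 149 CPM in DZ (1.58, SE 0.34, adjusted p = 0.0103). Trp53inp1, a stress-induced autophagy factor, had 110, 87.5, 91.4 and 45.3 CPM in LZ, against 214, 199, 196 and 154 CPM in DZ (-1.20, SE 0.22, adjusted p = 0.0032). The zones did not overlap in these genes, and Pdia4 was highest in LZ replicate 1. Ly6d (0.61), Cd9 (0.93), Slc3a2 (0.63), Hsp90b1 (0.46) and Cd28 (2.41), the last also a T cell gene, rose as well. Prdm1, the master factor of plasma cells, had 24.3, 26.9, 36.7 and 19.5 CPM in LZ, against 0.523, 14.1, 0.728 and 15.6 CPM in DZ and did not pass (1.83, SE 0.67, adjusted p = 0.131). Xbp1 (-0.09, adjusted p = 0.857) and Jchain (-0.36, adjusted p = 0.158) did not pass. The summed level of 7 plasma cell markers was 1111 to 1585 CPM in LZ and 1249 to 1554 in DZ. Leaving out replicate 1 of both zones gave 1 rise and 1 fall. The rises numbered 3 without LZ replicate 1 or LZ replicate 3, and 11 without DZ replicate 4.

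Metabolic and other lists gave few calls or none in edgeR's test, beside 3.13% higher and 2.91% lower over all genes tested. Of 22 glycolysis genes, Slc16a1, a lactate transporter, rose to 91.6 ± 14.4 CPM in LZ, against 54.6 ± 11 CPM in DZ (log2 fold change 0.74, SE 0.21, adjusted p = 0.0492), and it lost the call in all 8 fits that left out a library. None of the tested members passed among 28 cholesterol synthesis genes (median 0.02), 71 oxidative phosphorylation genes (0.02), 25 interferon genes (0.18), 20 immediate early genes (-0.05), 12 replication-dependent histone genes (-0.06) and 9 mitochondrially encoded genes (0.00). Of these 165 genes, 15 had an unadjusted p below 0.05 in edgeR, 6 passed in DESeq2 and 4 in limma voom. The nearest were the immediate early gene Dusp5 (-1.16, adjusted p = 0.056), the interferon-induced GTPase gene Irgm1 (1.08, adjusted p = 0.0566) and Cd69 (1.02, adjusted p = 0.0603), an activation antigen. Cd69, which retains lymphocytes in tissue, had 156, 117, 192 and 146 CPM in LZ, against 92.6, 59.0, 121 and 27.2 CPM in DZ, so that the zones overlapped. The antigen-receptor response gene Egr3 averaged 22.9 ± 12.7 CPM in LZ and 8.09 ± 6.43 CPM in DZ (1.54, SE 0.60, adjusted p = 0.153).

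**Figure D3:**
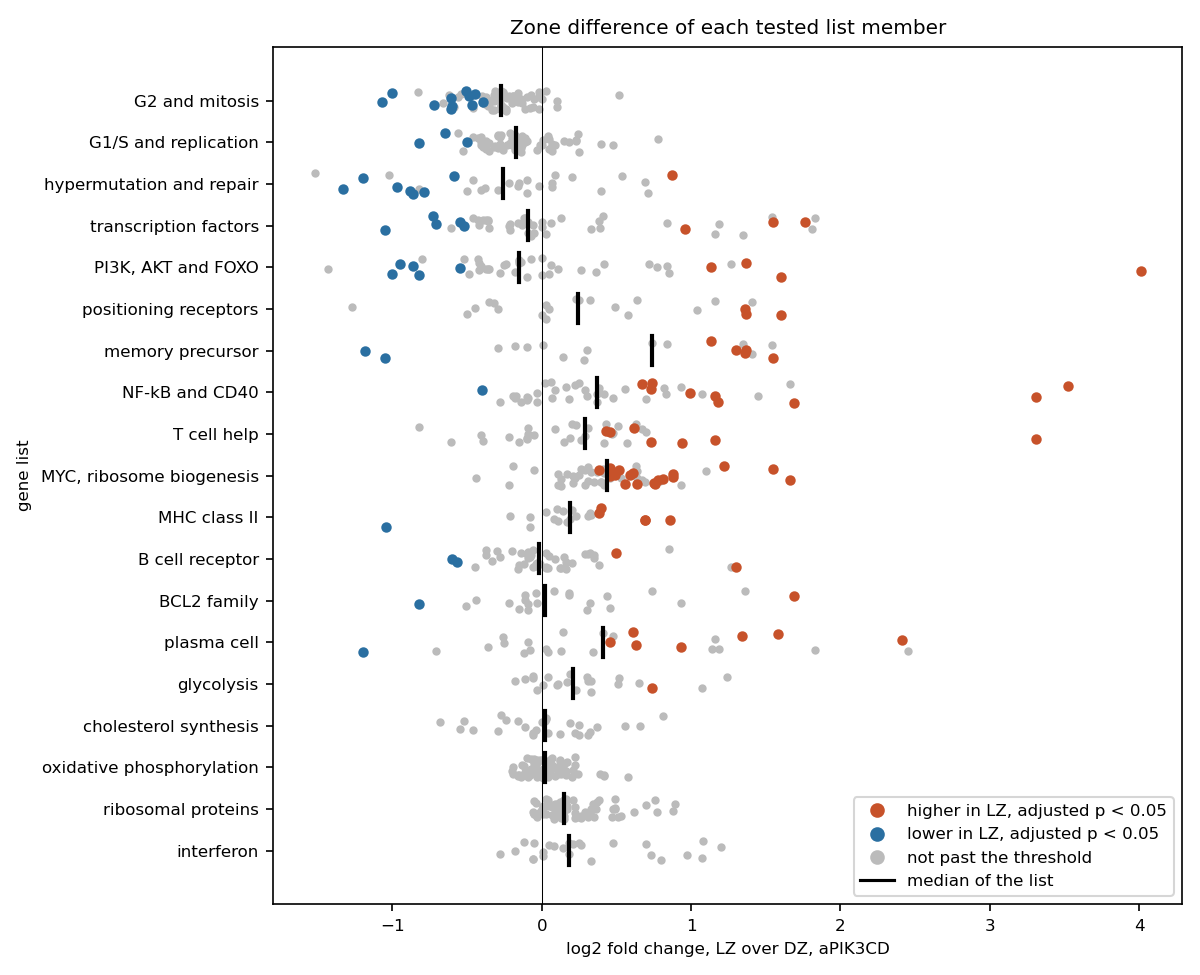
log2 fold change, LZ over DZ in aPIK3CD, of each tested member of 19 gene lists (points) with the list median (black bar). Members past an adjusted p of 0.05 are orange where higher and blue where lower in LZ. MYC and ribosome biogenesis members lie mostly right of 0 (median 0.44), G2 and mitosis members mostly left of it (median -0.27), and oxidative phosphorylation members close to it (median 0.02).

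Markers of other cells were present at low levels. Of 14 myeloid markers 6 were tested and Cd68, a lysosomal protein of macrophages, rose, with 63.7, 40.4, 65.4 and 98.1 CPM in LZ, against 24.1, 21.1, 40.8 and 13.0 CPM in DZ (log2 fold change 1.44, SE 0.34, edgeR adjusted p = 0.0171). Lyz2, lysozyme, had 187, 309, 4 and 17.6 CPM in LZ, against 3.66, 43.2, 0 and 9.07 CPM in DZ (3.32, SE 1, adjusted p = 0.0605). The summed myeloid level was 95.1 to 541 CPM in LZ and 56.2 to 166 in DZ (two-sided exact permutation p = 0.114, smallest possible 0.0286). The zones overlapped, with LZ replicate 3 the lowest LZ library, and without it the difference of the sum had an exact p of 0.0286, unadjusted. Cd68 did not pass without both libraries of replicate 1, and without LZ replicate 3, 3 myeloid markers did. NK cell markers summed to 16.4 to 147 CPM in LZ and 3.46 to 117 in DZ, and dendritic cell markers to 76.6 to 92.1 CPM in LZ and 75.3 to 115 CPM in DZ. The sums of T cell, naive B cell and germinal centre B cell markers separated the zones at the smallest p the design allows, 0.0286, or 0.0858 adjusted over 9 sums by the Benjamini-Hochberg method.

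**Figure D4:**
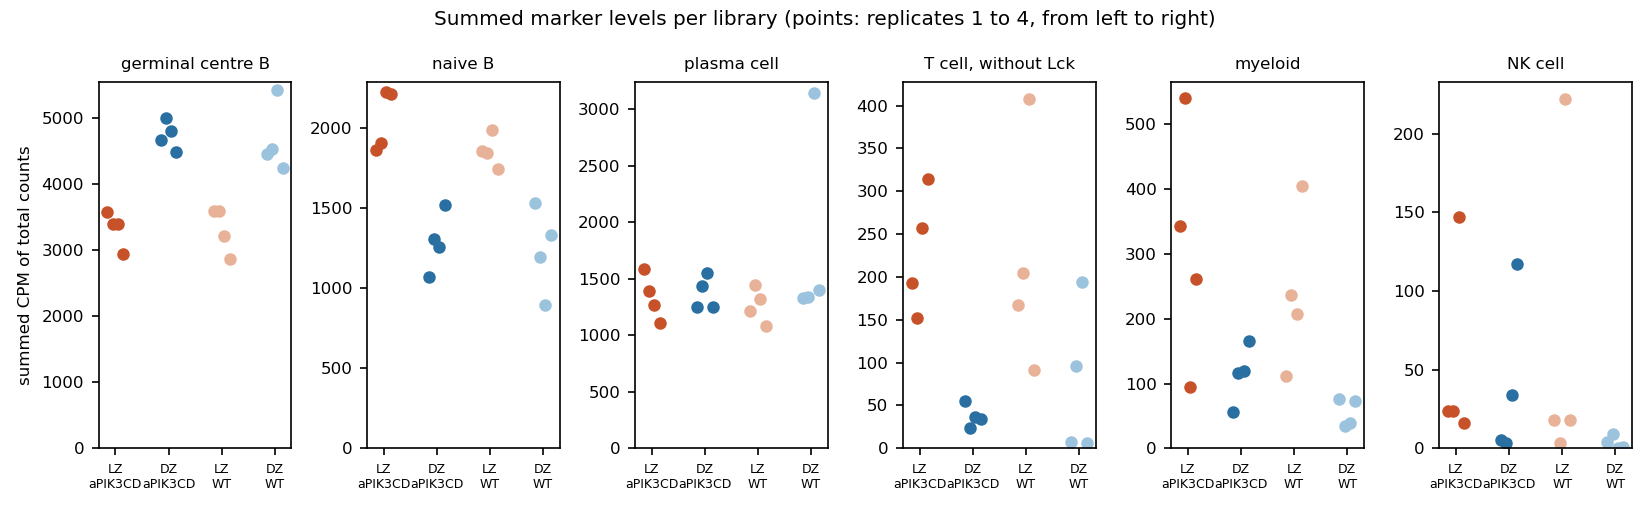
Summed CPM of total counts of 6 marker lists in each library (points, replicates 1 to 4), LZ left of DZ, for aPIK3CD and then WT. In aPIK3CD the germinal centre sum was 2942 to 3584 in LZ and 4482 to 5001 in DZ, and the T cell sum without Lck 152 to 314 in LZ and 23.4 to 55.1 in DZ. WT DZ replicate 3, the highest DZ point of the plasma cell panel, held 25797 counts in all.

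The same contrast in WT mice shares no library with the aPIK3CD one. There 125 of 9639 genes tested were higher and 121 lower in LZ (2.55%, or 1.3% higher and 1.26% lower). Of the 592 aPIK3CD genes, 577 were tested in WT, and 574 had the same sign there (99.5%, against 69.4% of the 9410 genes tested in both). In both genotypes 180 genes passed, which is 30.4% of the aPIK3CD calls and 73.2% of the WT calls. Across genes the log2 fold changes correlated with Pearson's r = 0.59 and Spearman's rho = 0.53, a description over genes that are not independent. The counts do not show that the zone difference is larger in aPIK3CD. DZ WT replicate 3 was shallow, and the WT count was 285 without it, 419 without LZ WT replicate 4 and 103 without DZ WT replicate 2.

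Median log2 fold changes of the lists were -0.31 in WT for G2 and mitosis, where 8 of 75 fell, 0.61 for MYC and ribosome biogenesis, where 14 of 52 rose, 0.62 for NF-kB and CD40, where 10 of 40 rose, and -0.47 for germinal centre markers. For naive B cell markers the WT median was 0.30, with 2 of 10 rising, beside 0.99 in aPIK3CD. None of these 10 passed the interaction test, in which the zone effects of the genotypes were compared. Side by side, the log2 fold change of Ccnd2 was 2.20 in aPIK3CD and 2.41 in WT, that of Batf 1.76 in aPIK3CD and 1.75 in WT, and that of Myc 1.55 in aPIK3CD and 1.85 in WT. Gcsam had -1.46 in aPIK3CD and -1.28 in WT, and Trim2 -3.69 in aPIK3CD and -3.15 in WT. Of the positioning receptors, S1pr1 had 1.37 in aPIK3CD and 0.16 in WT, Gpr183 1.36 in aPIK3CD and 0.04 in WT, and Ccr7 1.6 in aPIK3CD and 0.69 in WT. The difference between genotypes was 1.21 (SE 0.49) for S1pr1, 1.31 (SE 0.52) for Gpr183 and 0.91 (SE 0.54) for Ccr7, and none of these passed the interaction test (edgeR adjusted p = 1 each). Cdk2 had -0.89 in aPIK3CD and -0.20 in WT, a difference of -0.69 (SE 0.24). Actr3b had 3.03 in aPIK3CD and 0.36 in WT. Neither gene passed the interaction test (edgeR adjusted p = 0.999 for Actr3b).

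The difference of the zone effect, aPIK3CD minus WT, was fitted over all 16 zone libraries. Of 10469 genes, 1 passed (0.00955%), with 344 at an unadjusted p below 0.05. It was Wdr4, a subunit of a tRNA methyltransferase. Wdr4 had 62.6, 55.5, 60.2 and 54.6 CPM in aPIK3CD LZ and 58.2, 48.4, 63.0 and 57.1 CPM in aPIK3CD DZ, and 117, 68.8, 101 and 101 CPM in WT LZ and 15.9, 21.2, 0 and 28.3 CPM in WT DZ (log2 difference -2.13, SE 0.33, edgeR adjusted p = 0.0148). The zones overlapped in aPIK3CD and were apart in WT, and the WT LZ libraries lay above and the WT DZ libraries below all aPIK3CD libraries. The call was not kept in 6 of the fits that left out 1 library, without LZ aPIK3CD replicate 4, DZ aPIK3CD replicate 3, LZ WT replicate 1 or 3 or DZ WT replicate 1 or 2, where adjusted p was 0.0542 to 0.128. It was not kept without both libraries of aPIK3CD replicate 1 either (adjusted p = 0.0917). Other genes that the naming rule took from this fit were Gpr34 (4.95, SE 1.10, adjusted p = 0.409), Adm (adjusted p = 0.518), Taf8 (-1.6, adjusted p = 0.814) and Zfp655 (1.03, adjusted p = 1), none of which passed. Adm, the vasoactive peptide adrenomedullin, had 0 counts in all 4 WT DZ libraries. Replicate 3 of these held 25797 counts in all, so its 0 for Adm and for Wdr4 says little.

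**Figure D5:**
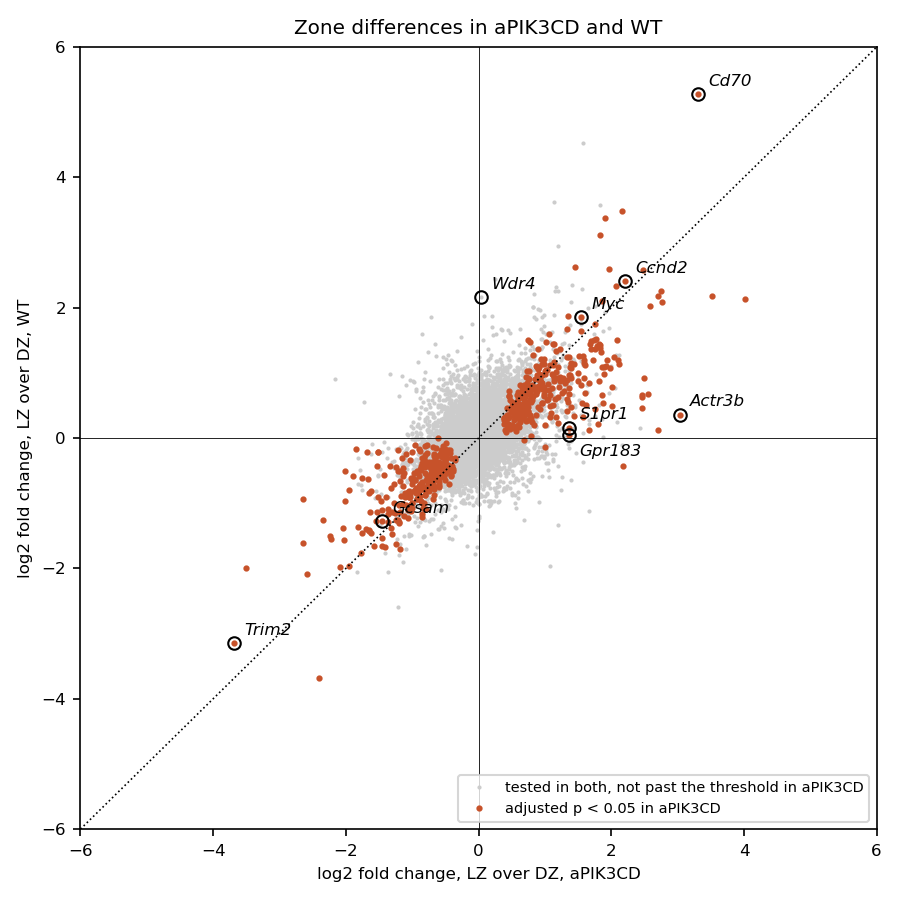
log2 fold change, LZ over DZ, in aPIK3CD (x axis) and WT (y axis) for the 9410 genes tested in both, with the 577 of 592 aPIK3CD calls tested in WT in orange and the line of equal change dotted. Orange points have the same sign on both axes apart from 3. Wdr4 stands at 0.03 in aPIK3CD and 2.16 in WT.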

How the data were processed

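The deposited table holds raw counts, whole numbers per gene as the authors made them, for 53465 Ensembl genes in 32 columns, all mapped to samples. STAR 2.4.2a, HTSeq and Picard appear in the submitters' processing notes, with roles, strand setting and treatment of duplicates not stated. The genome build: not given in the sources used here. Rows without a gene name (3433, or 0.173% of counts) were kept, as they carry Ensembl identifiers.

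LZ and DZ aPIK3CD libraries were fitted without other groups (edgeR 4.0.16, R 4.3.3): TMM normalization, filterByExpr (minimum count 10, minimum total 15), the two-sided quasi-likelihood F test, and Benjamini-Hochberg adjustment over all genes tested, with a threshold of 0.05. WT zones were fitted likewise, and the interaction over 16 libraries. CPM uses TMM-scaled library sizes, and the SE is |log2 fold change| over the square root of F. Summed marker levels were compared by exact permutation of 8 libraries (70 assignments). Counts of 1154809 to 1941224 per aPIK3CD library limit the precision of low genes, and the reads carry no molecular identifiers. Folds against 0 use a floor of 3 counts over the group, which covers counting error only. The fit was tested on simulated data.

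Named were the 14 genes per direction with the largest change past the threshold (at least 10 mean CPM in the higher zone, no overlap, no predicted genes or receptor segments), up to 5 members per list by p, 6 interaction genes, Pik3cd and the zone markers. Some genes are not reported here. The comparison and the 33 gene lists were chosen with earlier results of these data known. Promoters were matched by symbol in RefSeq (GRCm38.p6) and all motifs searched on both strands.

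Alternatives were DESeq2 1.42.0 (size factors, Wald test), limma 3.58.1 voom with sample weights, no filter, no immunoglobulin and T cell receptor genes, thinning, a correction for a bound of 2 counts per exonic base, the replicate number as a block, all 8 groups in a single fit, and leaving out each library or both of aPIK3CD replicate 1. For marker sums, leaving out libraries was added after seeing the data.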

Additional observations from a re-analysis of the deposited data

Results flagged for a closer look

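In groups of 4 libraries, a library was marked where its gap to the nearest other library was above Dixon's 95% critical value as a share of the group's range. This marked 13 of 242 groups, and chance alone marks about 1 in 20. Cd8b1 was lowest in LZ replicate 4 (12.6 CPM, against 25.4 to 27.3 in the other LZ libraries), and Il7r was highest in LZ replicate 2 (17.9, against 9.86 to 10.7). Cd83 was highest in LZ replicate 1 (920 CPM, against 610 to 663), and this library carries the WT genotype field. Rfc1 was highest in LZ replicate 2 (668, against 563 to 573), and Zfp655 was lowest in LZ replicate 3 (72.7, against 111 to 119).

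Among DZ libraries, replicate 4 had the highest Fcer2a (154 CPM, against 73.1 to 81.5) and the lowest Cenpf (485, against 579 to 594), and it was the single DZ library with Zfp105 reads (1.94). DZ replicate 1 had the lowest Cdk2 (152, against 208 to 218) and the single value above 0 of Gpr55 (4.71). For Zfp105 and Gpr55 the other DZ libraries were at 0, so any single value above 0 would be marked. The stated chance rate does not apply to these groups. Of the summed marker levels, the T cell sum was lowest in LZ replicate 2 (513 CPM of total counts, against 682 to 711), the dendritic cell sum highest in LZ replicate 4 (92.1, against 76.6 to 78.7) and the NK cell sum highest in LZ replicate 3 (147, against 16.4 to 24.0).

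The zone difference of Wdr4 differed between genotypes in the interaction fit (log2 difference -2.13, SE 0.33, edgeR adjusted p = 0.0148). The call was not kept with limma voom (adjusted p = 0.0574). In edgeR it was not kept with thinning (0.0586), the replicate block (0.128) or all 8 groups in 1 fit (0.0733). The fits without libraries that lost it are given above.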

How the results depend on the processing

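No result reversed. The aPIK3CD counts (307 higher, 285 lower) became 487 higher without a filter, 185 lower with all 8 groups in 1 fit, and 154 and 165 without both libraries of aPIK3CD replicate 1. Leaving out 1 library gave 171 to 343 higher and 175 to 286 lower, lowest without LZ replicate 3. With the replicate number as a block they were 517 and 442. Same-numbered LZ and DZ libraries correlated by 0.2486, 0.2299, 0.0524 and 0.0617 in their deviations from the group means, not every one above 0.1. Their column names also share a stem and a letter (E, F, G or H). The labels do not say whether this marks a mouse, and the main fit treated the libraries as unpaired. Each LZ library correlated best with its own number, a hint from the data. The WT counts (125 and 121) became 62 and 60 with DESeq2, 233 and 247 with voom, 321 and 238 without a filter and 77 lower with all 8 groups. Leaving out 1 library gave 48 to 229 higher and 51 to 190 lower. The interaction had 29 higher and 18 lower without a filter and 0 lower with voom, thinning, the block, all 8 groups, or without both libraries of aPIK3CD replicate 1, and 0 to 1 lower when 1 library was left out. The summed myeloid difference, 1.28 on the log2 scale, was 0.93 to 1.77 when 1 library was left out, the highest value being without LZ replicate 3, where the unadjusted exact p was 0.0286, the smallest possible. The causes were not tested. Of 95 genes that passed under the naming rule, 72 kept the call in all 8 leave-one-out fits, 50 in every setting and 67 without both libraries of replicate 1. Highest coverage was 1.81 counts per exonic base, and correcting for the bound of 2 gave 594 calls.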

Other observations

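By smallest p rather than size of change, and chosen after their values were seen, other genes stood out. Pafah1b3, a catalytic subunit of platelet-activating factor acetylhydrolase, averaged 115 ± 11.9 CPM in LZ and 360 ± 54.6 CPM in DZ (SD, n = 4 each, log2 fold change -1.65, edgeR adjusted p = 2.24e-05, the smallest of all genes tested). Rgcc, a regulator of the cell cycle induced by complement, averaged 63.1 ± 20.6 CPM in LZ and 243 ± 24.6 CPM in DZ (-1.95), and Smarca4, the ATPase of the SWI/SNF chromatin remodeller, 336 ± 51.7 CPM in LZ and 680 ± 40.8 CPM in DZ (-1.01). Anxa2, annexin A2, averaged 252 ± 61.6 CPM in LZ and 598 ± 60.3 CPM in DZ (-1.25).

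Higher in LZ were Gimap4, a lymphocyte GTPase, with 466 ± 46.2 CPM in LZ and 185 ± 28.5 CPM in DZ (1.33), Slfn2, a Schlafen family member, with 239 ± 44.6 CPM in LZ and 84.0 ± 16.7 CPM in DZ (1.5), and Casp4, an inflammatory caspase, with 115 ± 17.2 CPM in LZ and 33.9 ± 5.23 CPM in DZ (1.77). T cells express Gimap4 and Slfn2 as well, and the summed T cell markers moved the same way, as given above. The 3 aPIK3CD genes whose sign was opposite in WT were Mipol1 (2.18 in aPIK3CD and -0.43 in WT), Gpr171 (1 in aPIK3CD and -0.14 in WT) and Casp1 (0.69 in aPIK3CD and -0.03 in WT), and none differed between genotypes in the interaction fit (edgeR adjusted p = 1 each).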
